A study of Mus musculus and Homo sapiens with 12 samples.

Results

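K562 chromatin-associated RNA (caRNA) was compared between 3 libraries made from fragments pulled down with an antibody against 5-methylcytosine (m5C-IP) and 3 libraries of the same kind of RNA without pull-down (Input). Genes with at least 30 counts summed over the 3 IP libraries were followed, which gave 2848 of 58721 gene rows. K562 is an established human line from a chronic myeloid leukaemia, and all 6 libraries came from wild-type cells grown with fetal bovine serum. The labels also give puromycin in the medium, an agent that the study's methods name only for its transduced K562 lines. They are 6 of the 12 libraries of a study that also profiled mouse embryonic stem cells, and the question they address is which chromatin RNAs carry m5C. Groups were taken from the library titles, because the antibody label names the m5C antibody for the Input libraries too. The IgG control reaction of the protocol was not analysed here.

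m5C is a methyl mark on cytosine in RNA that is placed by enzymes of the NSUN family and by TRDMT1. TET proteins oxidise it, and proteins such as YBX1 and ALYREF bind it. It is best known from transfer and ribosomal RNA and is also found in mRNA and noncoding RNA. The chromatin fraction holds nascent transcripts with their introns, RNAs that stay at chromatin, and some mature RNA from elsewhere in the cell.

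The Input libraries held 10477119 to 11865285 gene counts and the IP libraries 93110 to 111286, so the precision of each ratio was set by the IP side. Members took 65.2% to 65.5% of Input and 59.5% to 61.1% of IP gene counts. Spread between Input libraries was compared with counting noise. A chi-square statistic divided by its degrees of freedom came to 0.912 (replicates 1 and 2), 0.918 (1 and 3) and 1.03 (2 and 3). The first 2 pairs differed by less than sampling noise and the last by slightly more (p = 0.00439, chi-square test across 17881 genes), so the libraries were kept as 3 and also summed as 1 sample. IP pairs gave 1.17 to 1.21. Nothing in the labels says whether replicates were separate cultures, so p-values measure only the spread between these libraries. The cell label was checked against markers. In Input, the haematopoietic factors GATA1 and TAL1 stood at 87.0 ± 1.32 and 150 ± 4.67 CPM (gene counts scaled to the same library total of 1e6, mean ± SD, n = 3) and the transferrin receptor TFRC at 372 ± 8.18 CPM. The 11 erythroid markers summed to 637 to 657 CPM, with the globin genes HBG2 and HBE1 at 0. The 6 lymphoid markers summed to 2.20 to 4.16 CPM with MS4A1 at 0, which goes against the label's word lymphoblast, and the 6 monocyte and granulocyte markers to 2.11 to 2.77 CPM.

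Of the 2848 members, 339 were higher and 1180 lower in IP (edgeR quasi-likelihood test, adjusted p under 0.05). These are 11.9% and 41.4% of the members, while over all 14522 genes tested, 15.1% were higher and 16.4% lower. With the Input libraries summed as 1 sample the member counts were 234 and 807. The members' median log2 IP/Input was -0.35, with a range of -1.54 to 8.94 and quartiles at -0.68 and 0.09. All tested genes had a median of -0.16, and the scaling moves this zero: with library size alone it was 0.11, and the member calls became 516 higher and 583 lower. Higher calls made up 22.3% of member calls here, 47.0% with library size alone, 30.9% with DESeq2's size factors in edgeR, 32.7% with DESeq2, 57.3% with Input thinned to the IP depth and 10.6% with no low count filter. Group values below are therefore given as relative medians, the group's median minus that of all tested genes. Of the members, 1714 had IP and Input CPM that did not overlap, and 1339 of these were called. They are 60.2% of the members, against 46.8% of all tested genes. In pooled cells and fragments, more marked molecules and more marks on each molecule cannot be told apart.

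The limit on IP counts favours genes that are high in IP. The 514 members under 100 Input CPM held 254 of the higher calls and none of the lower calls. Those far under 100 Input CPM are members only because their IP counts were high for their Input. Those just under it needed no such excess, as with MED1 at 96.3 CPM in Input and 95.4 CPM in IP (means, log2 -0.21). Among 2894 genes chosen by at least 100 mean Input CPM instead, of which 2334 are members, 85 were higher and 1634 lower. Calls of gene lists are therefore given for the members and for all tested genes of a list. Just inside the limit, the 107 genes with 30 IP counts had a median log2 of -0.38, and just outside it the 113 genes with 29 counts had -0.32. The median standard error (SE) of a log2 value was 0.23 for members with 30 to 50 IP counts and 0.10 for those with at least 200.

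The gene with the most IP counts was MALAT1, an abundant nuclear noncoding RNA that sits at splicing-factor-rich nuclear speckles (GRCh38, chr11:65497640-65508073, plus strand). It stood at 431, 433 and 476 CPM in the Input libraries and at 5123, 5383 and 5596 CPM in the IP libraries. Every IP library lay above every Input library, and the log2 ratio was 3.38 ± 0.06 (SE; adjusted p = 5.683e-133 from edgeR). It held 0.536% of all IP gene counts and ranked first there, and 256th in Input. NEAT1, the noncoding RNA that builds paraspeckles, stood at 538, 534 and 571 CPM in Input and at 1797, 1788 and 2030 CPM in IP (log2 1.56 ± 0.08 SE, adjusted p = 1.654e-46). The next members by IP counts were genes with high Input. The chromatin factor GSE1 had 833 IP counts and a log2 of 0.01, and the kinase gene PRKCB had 707 IP counts and a log2 of -0.30.

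Small noncoding RNA genes that were members had high ratios, which the limit on IP counts requires of genes with Input as low as theirs. Their adjusted p-values are therefore no support for the group. Of 9 tested small nuclear RNA genes 6 were higher and 0 lower. Of 6 tested small nucleolar RNA genes 3 were higher and 0 lower, and of 4 tested ribosomal RNA pseudogenes 4 were higher. The low count filter lets genes in through IP too. The 2 small nuclear RNA members, RNU1-27P and RNU1-28P, are annotated copies of U1, the RNA that recognises the start of introns. RNU1-27P (chr14:34546714-34546877, plus strand) stood at 3.29, 4.07 and 3.05 CPM in Input and at 185, 162 and 258 CPM in IP. These rest on 118 Input and 62 IP counts, and the log2 was 5.62 ± 0.33 (SE, edgeR adjusted p = 2.698e-39). RNU1-28P (chr14:34556226-34556389, minus strand) stood at 158, 135 and 236 CPM in IP against 3.03, 4.25 and 2.96 CPM in Input (log2 5.44 ± 0.35 SE). Their sequence is shown because the genome holds it more than once. Over all 164 bases both copies have 0 differences from RNU1-1 (chr1:16514122-16514285), and 6 RNU1 genes share this sequence, so the copies are uncertain as the source of a read. RNU1-1 itself had 10 Input and 0 IP counts. Capitals mark bases 3 to 11, which hold the stretch known to pair with the 5′ end of introns.
RNU1-27P: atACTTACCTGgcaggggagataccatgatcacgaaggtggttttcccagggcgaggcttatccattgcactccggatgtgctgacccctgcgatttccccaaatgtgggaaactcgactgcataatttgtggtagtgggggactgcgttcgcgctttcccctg

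The ribosomal RNA pseudogene RNA5SP202, the shortest member at 119 bases, is annotated as a copy of 5S, a small RNA of the large ribosomal subunit. It stood at 3.54, 3.47 and 4.20 CPM in Input and at 111, 108 and 85.9 CPM in IP (log2 4.57 ± 0.42 SE, edgeR adjusted p = 2.823e-20). The IP values lay above all Input values. They rest on 126 Input and 32 IP counts, and 5S genes are multi-copy, so the copy from which a read came is uncertain.

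SNORD3A and SNORD3C, copies of the U3 small nucleolar RNA that acts in the processing of ribosomal RNA, were the 2 small nucleolar RNA members. SNORD3A (chr17:19188016-19188714) stood at 7.67, 7.89 and 7.54 CPM in Input and at 232, 234 and 247 CPM in IP (log2 4.73 ± 0.28 SE, edgeR adjusted p = 1.473e-38). SNORD3C rested on 36 IP counts, with a log2 of 4.81 ± 0.40 (SE). In both, the IP values lay far above the Input values without overlap. Each is a multi-copy gene, so the split of reads between copies is uncertain.

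Few other small RNA genes had counts. Of 313 small nucleolar RNA genes inside an intron of a gene on the same strand, 0.639% had an Input count, against 14.4% of 146 inside an intron on the opposite strand. For protein-coding genes the shares were 17.4% of 155 and 59.1% of 470, and 81.1% of 6597 that overlap no other gene. That is the pattern of counts over whole genes, introns included, that keep the strand and leave out reads falling in more than 1 gene, and a small RNA inside a host intron was mostly without counts. For this reason the GC content and length of the whole gene are given beside those of the exons.

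All 11 mitochondrially encoded members were higher in IP, with a relative median of 4.45. All 15 of the tested ones were higher too, beside 15.1% of all tested genes. No mitochondrially encoded gene reached 100 mean Input CPM, so the limit on IP counts favoured members with high ratios. The members' calls, median and adjusted p-values are therefore no support for the group. Mitochondrially encoded genes are transcribed from the mitochondrial genome, outside the nucleus. The complex I subunit MT-ND4 stood at 28.4, 37.8 and 39.4 CPM in Input and at 1065, 899 and 891 CPM in IP (log2 4.56 ± 0.14 SE, edgeR adjusted p = 1.023e-84). MT-CO1, a core subunit of cytochrome oxidase, stood at 33.5, 42.7 and 41.3 CPM in Input and at 862, 836 and 967 CPM in IP (log2 4.29 ± 0.14 SE). IP values of both genes lay above all Input values. The members were not equal among themselves: the ATP synthase subunit MT-ATP6 had the highest log2 at 5.06 ± 0.21 and the ribosomal RNA MT-RNR2 the lowest at 1.88 ± 0.25, with MT-ND5 at 2.43 ± 0.17 and MT-ND6, on the other strand, at 3.41 ± 0.22 (SE). MT-RNR2 stood at 38.4, 37.5 and 44.4 CPM in Input and at 195, 162 and 150 CPM in IP.

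On chromosome 21, 2 noncoding RNA genes without a symbol span 5.8S ribosomal RNA genes and were also higher in IP. They were singled out after their values were seen. ENSG00000280441 (chr21:8380643-8454792) spans RNA5-8SN1 and RNA5-8SN3 and stood at 78.1, 71.3 and 67.9 CPM in Input and at 1631, 1555 and 2159 CPM in IP (log2 4.39 ± 0.10 SE, edgeR adjusted p = 2.509e-110). ENSG00000278996 (chr21:8197620-8227646) spans RNA5-8SN2, with 1288, 1213 and 1375 CPM in IP (log2 4.73 ± 0.11 SE). They were the 7th and 16th members by IP counts. The parts of these spans from which the reads came cannot be told from gene counts.

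Cytosolic ribosomal protein genes were higher in IP as a group. Of the 45 that are members, 44 were higher and 0 lower, with a relative median of 2.39. Of the 74 tested 66 were higher and 0 lower, beside 15.1% and 16.4% of all tested genes. No cytosolic ribosomal protein gene was among the genes chosen by Input, so the limit on IP counts favoured members with high ratios. The members' calls, median and adjusted p-values are therefore no support for the group, which rests on the 74 tested genes. RPL13A, a protein of the large ribosomal subunit (chr19:49487510-49493057), stood at 45.2, 44.6 and 44.2 CPM in Input and at 380, 449 and 430 CPM in IP (log2 3.02 ± 0.17 SE, edgeR adjusted p = 3.386e-41). RPL5, also of the large subunit, stood at 56.3, 51.8 and 56.7 CPM in Input and at 306, 288 and 301 CPM in IP (log2 2.23 ± 0.19 SE). In each case the IP libraries lay well above Input. The range ran from RPS19, which was not called (log2 0.55 ± 0.23 SE, adjusted p = 0.065), to RPS18 (log2 4.19 ± 0.29 SE). These genes are short: their members had a median span of 5.55 kb, of which 56.1% was exon, against 89.6 kb and 9.58% for all members. The quintile of members with the largest exonic share had a relative median of 0.36. Ribosomal proteins also have many processed pseudogenes, and how reads were split between them and the genes was not tested.

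Translation factors were higher in 9 of 22 members and lower in none, with a relative median of 0.55. Of the 40 tested 13 were higher and 3 lower (0.43), and of the 13 chosen by Input 3 were higher and 2 lower (0.07). EEF1A1, which carries transfer RNA to the ribosome, stood at 56.0, 53.2 and 55.0 CPM in Input and at 667, 530 and 838 CPM in IP (log2 3.40 ± 0.14 SE, edgeR adjusted p = 1.305e-60). EEF2, which moves the ribosome along the mRNA, stood at 102, 103 and 99.0 CPM in Input and at 500, 485 and 730 CPM in IP (log2 2.27 ± 0.14 SE). Both groups lay apart without overlap. NACA, of the nascent-chain complex, and PABPC1, the poly(A)-binding protein, had log2 values of 3.81 ± 0.30 and 1.82 ± 0.16 (SE). Of 12 aminoacyl-tRNA synthetases, which load transfer RNAs, only SARS1 was higher (log2 0.47) and none lower, and of 20 tested 1 was higher and 1 lower. IARS1 stood at 491, 485 and 537 CPM in IP against 506, 506 and 520 CPM in Input, with overlap. YARS1 was not called either.

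**Figure D1:**
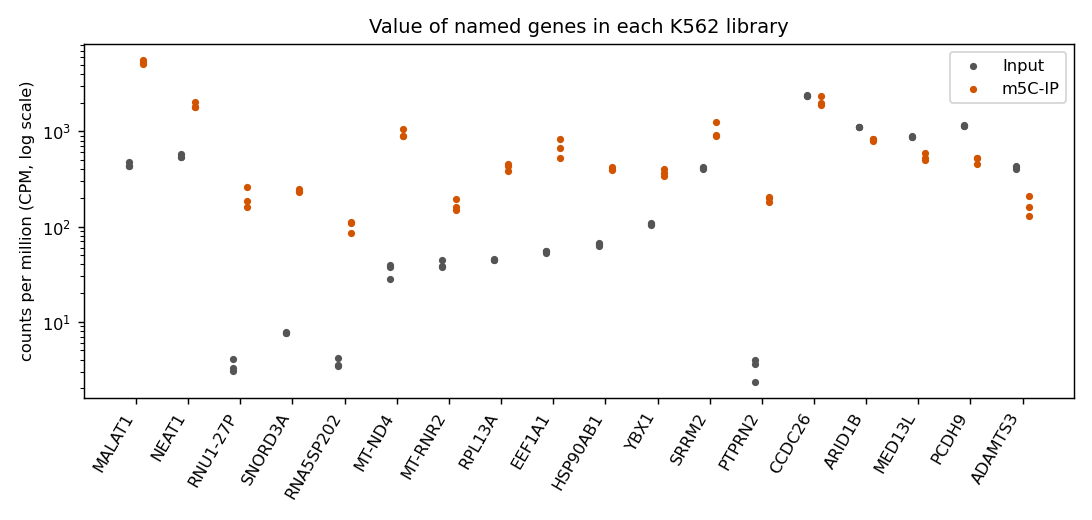
CPM (log axis) of 18 named genes in each of the 3 Input (grey) and 3 m5C-IP (orange) K562 libraries, one point a library. MALAT1 reaches 5123 to 5596 CPM in IP, the small RNA copies and PTPRN2 lie near 3 CPM in Input, and ADAMTS3, PCDH9, MED13L and ARID1B lie lower in IP than in Input.

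Chaperone genes were higher in 11 of 15 members and lower in none (relative median 0.91). Of the 26 tested 12 were higher and 0 lower (0.81), and of the 3 chosen by Input 2 were higher. HSP90AB1, a cytosolic chaperone of the HSP90 family, stood at 62.8, 65.5 and 67.3 CPM in Input and at 398, 395 and 419 CPM in IP (log2 2.42 ± 0.16 SE, edgeR adjusted p = 4.865e-32). HSPA9, the mitochondrial HSP70, stood at 177, 177 and 181 CPM in Input and at 361, 332 and 312 CPM in IP (log2 0.71 ± 0.15 SE). Both had IP values above all Input values. Of 7 glycolysis members 3 were higher and 1 lower (relative median 0.36, and 0.17 with a correction for whole-gene GC content), and of 16 tested 5 were higher and 1 lower. GAPDH had a log2 of 2.12 ± 0.29 (SE), and the glucose transporter SLC2A1 a log2 of -0.92. HK1, the first enzyme of the pathway, was not called (log2 0.20, edgeR adjusted p = 0.211), nor was PFKP.

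Genes for RNA-binding proteins of the nucleus had smaller values, with calls on both sides. Of 23 hnRNP and paraspeckle members 7 were higher and 2 lower (relative median 0.43), and of 24 SR protein and core splicing factor members 6 were higher and 3 lower (0.30). Of the 29 tested hnRNP and paraspeckle genes 8 were higher and 2 lower, and of the 43 tested splicing factors 6 and 4, where the 14.0% higher was under the 15.1% of all tested genes. HNRNPU, a scaffold protein of nuclear RNA, stood at 222, 218 and 230 CPM in Input and at 445, 539 and 387 CPM in IP (log2 0.84 ± 0.14 SE, edgeR adjusted p = 7.728e-08). SRRM2, a large protein of nuclear speckles, stood at 402, 410 and 422 CPM in Input and at 908, 899 and 1267 CPM in IP (log2 1.09 ± 0.10 SE, adjusted p = 4.963e-20). HNRNPK and HNRNPA2B1 had log2 values of 1.16 and 1.12. HNRNPLL and PSPC1, at -0.69 and -0.66, were the 2 lower ones. HNRNPC and ACIN1 overlapped between the groups and were not called, though ACIN1 was called higher without IP replicate 3 (log2 0.46).

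Erythroid and haem genes were split: 4 of 17 members were higher and 6 lower (relative median 0.11, and -0.12 with a correction for whole-gene GC content). Of the 35 tested 5 were higher and 8 lower. The higher ones were GATA1 (log2 1.54 ± 0.18 SE), the ferritin chains FTL (2.85) and FTH1 (2.54), and the haem synthesis enzyme UROD (1.08). The lower ones included the membrane skeleton genes EPB41 and ANK1. EPB41 stood at 1042, 1031 and 1055 CPM in Input and at 686, 908 and 1010 CPM in IP, so that IP replicate 3 came close to Input (log2 -0.48 ± 0.10 SE, edgeR adjusted p = 2.518e-05). ANK1 stood at 802, 817 and 825 CPM in Input and at 695, 845 and 795 CPM in IP and overlapped (log2 -0.27 ± 0.10 SE, adjusted p = 0.0315). Its call was lost without IP replicate 1 (log2 -0.20), without IP replicate 3 (-0.28) and with Input as 1 sample. The 4 higher genes span 1.57 to 7.92 kb.

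Chromatin regulator genes were lower in 33 of 52 members and higher in 4, with a relative median of -0.41 that became -0.23 after the whole-gene GC correction. Of the 63 tested 57.1% were lower and 11.1% higher, beside 16.4% and 15.1% of all tested genes. Of the 52 chosen by Input 67.3% were lower and 3.85% higher, beside 56.5% and 2.94% of all genes chosen by Input. The chromatin regulator members have a median span of 132 kb and an exonic share of 12.3%. ARID1B, a subunit of the SWI/SNF remodeller, stood at 1119, 1097 and 1114 CPM in Input and at 787, 836 and 838 CPM in IP (log2 -0.64 ± 0.10 SE, edgeR adjusted p = 1.539e-08). MED13L, of the Mediator kinase module, stood at 864, 863 and 888 CPM in Input and at 500, 593 and 526 CPM in IP (log2 -0.89 ± 0.12 SE, adjusted p = 1.84e-11). Every IP value of both lay below Input. SETD1B, a histone methyltransferase, went the other way (log2 0.77 ± 0.21 SE). Integrator and Mediator subunits were lower in 8 of 13 members and higher in none (-0.37). Of 43 tested 10 were lower (23.3%) and 1 higher (2.33%), beside 16.4% and 15.1% of all tested genes. Of the 12 chosen by Input 8 were lower (66.7%) and 0 higher, beside 56.5% and 2.94% of all genes chosen by Input. MED15 was at 0.00 and not called, though it was called lower with the whole-gene GC correction (-0.32).

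ZNF zinc finger genes were lower in 10 of 28 members and higher in none (relative median -0.28). That is 35.7% lower, under the 41.4% of all members, and of the 371 tested 15.9% were lower and 4.58% higher. ZNF609 stood at 628, 632 and 634 CPM in Input and at 537, 359 and 462 CPM in IP (log2 -0.69 ± 0.13 SE, edgeR adjusted p = 1.564e-06), and ZNF83 overlapped and was not called. Of 40 solute carrier members 15 were lower and 2 higher (-0.13), and of 218 tested 35 were lower and 33 higher (0.003), which are shares close to those of all tested genes. SLC6A6, the taurine transporter, overlapped and was not called. The mitochondrial carrier SLC25A21 stood at 1245, 1249 and 1244 CPM in Input and at 852, 584 and 580 CPM in IP (log2 -1.09 ± 0.11 SE). The 3 proteasome members were lower, but of the 30 tested 5 were lower and 3 higher, with a relative median of 0.40 against -0.70 for the members (-0.21 with the whole-gene GC correction). PSMA1 had a log2 of -1.14 ± 0.20 (SE) and PSMD14 one of -0.55 ± 0.20 with overlapping values, a call lost without IP replicate 1 (-0.38) or 3 (-0.51). Cell cycle genes were split, with 4 of 15 lower, such as CDK6 (log2 -0.87 ± 0.18 SE), and 3 higher, led by the nucleotide synthesis enzyme TYMS (2.13 ± 0.18), and of 47 tested 8 were lower and 3 higher. NUMA1 was not called. None of 6 nuclear respiratory chain members was called, NDUFA10 and SDHA among them, but of 64 tested 13 were higher and 1 lower (0.31). Of 3 mitochondrial ribosomal protein members only MRPS22 was (higher, log2 1.06 ± 0.22 SE), while MRPS25 overlapped. Of the 68 tested mitochondrial ribosomal protein genes 4 were higher (5.88%) and 3 lower (4.41%), both under the shares of all tested genes. No replication-dependent histone gene reached 30 IP counts, and of 40 tested 1 was higher and 0 lower.

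Noncoding RNAs that stay at chromatin did not share a direction. Among 7 nuclear lncRNA members 4 were lower and 2 higher, the latter MALAT1 and NEAT1, and of 13 tested 5 were lower and 3 higher. The members' relative median of -0.63 became -0.23 with the whole-gene GC correction. KCNQ1OT1, which silences its imprinted domain in cis, had a log2 of -0.98 ± 0.18, JPX one of -0.93, PVT1 one of -0.80 and FTX one of -0.79. The spliced hosts of small nucleolar RNAs GAS5 and SNHG29 were higher, and of 16 tested hosts 4 were higher and 1 lower, with a relative median of -0.22 against 1.08 for the 3 members. GAS5 stood at 59.0, 55.4 and 61.1 CPM in Input and at 167, 288 and 140 CPM in IP (log2 1.58 ± 0.22 SE, edgeR adjusted p = 2.952e-10), and SNHG29 at 93.7, 92.7 and 95.1 CPM in Input and at 158, 207 and 258 CPM in IP (log2 0.92 ± 0.20 SE). The third, SNHG17, was at -0.10.

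Of 19 genes for RNA m5C enzymes, oxidases and readers in the table, 9 were members, with 2 higher and 5 lower (relative median -0.26, and -0.11 with the whole-gene GC correction). Of the 17 tested 2 were higher (11.8%) and 9 lower (52.9%), beside 15.1% and 16.4% of all tested genes. Of the 10 chosen by Input 2 were higher (20%) and 6 lower (60%), beside 2.94% and 56.5% of all genes chosen by Input. These values concern the RNA of the m5C genes, not their proteins. YBX1, a reader of m5C, stood at 107, 105 and 108 CPM in Input and at 343, 368 and 397 CPM in IP (log2 1.58 ± 0.16 SE, edgeR adjusted p = 1.69e-17). NSUN4, the mitochondrial ribosomal RNA methyltransferase, had a log2 of 0.57 ± 0.20 (adjusted p = 0.0232). The oxidase TET3 stood at 290, 289 and 293 CPM in Input and at 259, 270 and 215 CPM in IP (log2 -0.43 ± 0.16 SE, adjusted p = 0.0318), a call lost without IP replicate 1 (-0.46), 2 (-0.50) or 3 (-0.33) and with Input as 1 sample. TET1 (-0.48), PSPC1 (-0.66), MBD5 (-1.13) and ASXL1 (-1.17) were the other lower ones. NSUN2 and NSUN6 were not called. TET2, with 21 IP counts, was under the limit and had a log2 of -1.10 ± 0.27 (adjusted p = 0.000587).

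**Figure D2:**
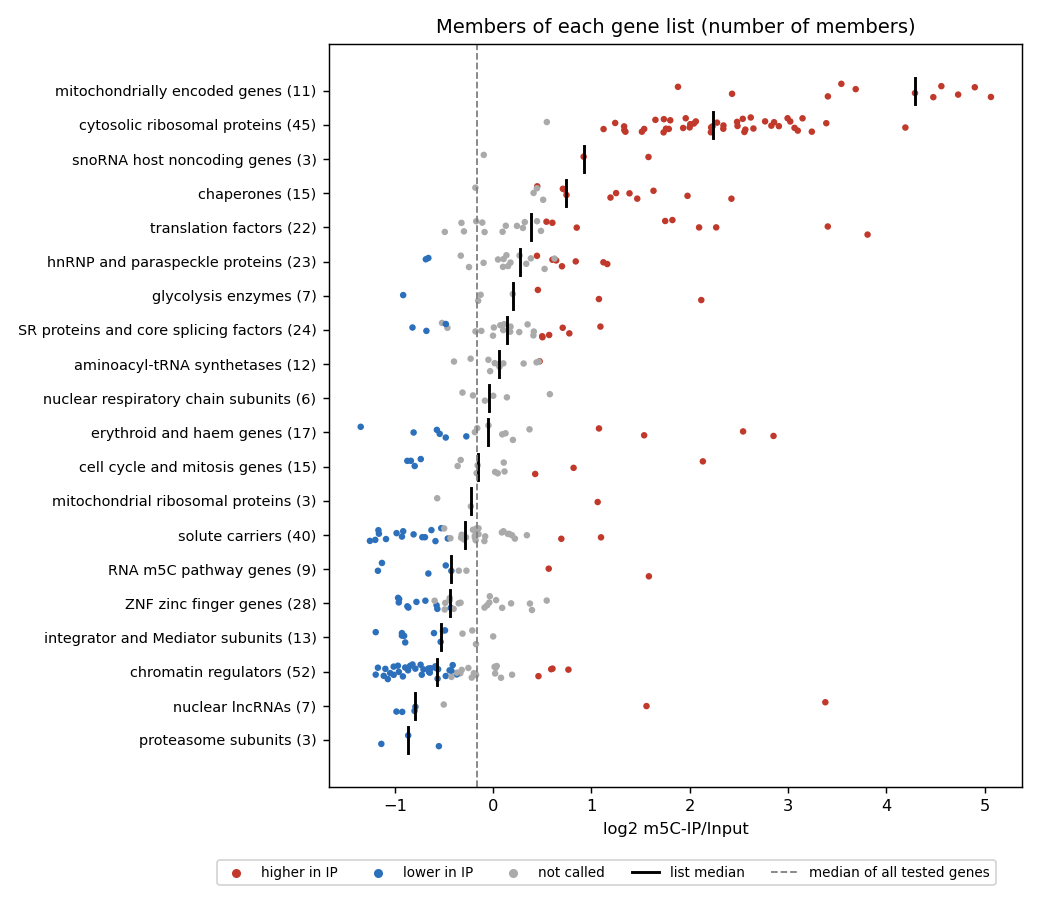
log2 m5C-IP/Input of each member of the gene lists, with red for genes called higher, blue for genes called lower and grey for the rest (edgeR, adjusted p under 0.05). Black bars are list medians and the dashed line is the median of all 14522 tested genes (-0.16). Mitochondrially encoded and ribosomal protein genes lie to the right, and chromatin regulators and Mediator subunits to the left.

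The size rule asked for an edgeR adjusted p under 0.05 and non-overlapping CPM. It also asked for at least 5 counts in each IP library and at least 30 summed Input counts. On the lower side 1008 of the 2848 members qualified. Without the rest of the rule, 41.4% of members and 16.4% of all tested genes were called lower. The lowest was ADAMTS3, a gene for a procollagen-processing protease (chr4:72280969-72569221). It stood at 421, 406 and 433 CPM in Input and at 130, 207 and 161 CPM in IP (log2 -1.54 ± 0.18 SE, edgeR adjusted p = 1.254e-13). KIAA1328 (-1.54), the noncoding RNA ENSG00000258081 (-1.54), PDLIM5 (-1.51), the replication repair factor MMS22L (-1.51), LINC02307 (-1.48), the Notch pathway ligase MIB1 (-1.46) and CARD18 (-1.45) followed. All 8 span 141 to 696 kb, with a whole-gene GC content of 35.2% to 38.6%. LINC02307 was steady, at 398, 395 and 395 CPM in Input and at 167, 162 and 161 CPM in IP. The lowest exonic GC content was that of LINC01194, which was lower too (log2 -1.28 ± 0.20 SE), and FBRSL1, with the highest, was higher (0.42 ± 0.15 SE). FBRSL1 lost its call without IP replicate 2 (0.25) or 3 (0.41) and turned to -0.37 with the whole-gene GC correction. The protocadherin gene PCDH9, named for its high Input, stood at 1146, 1133 and 1155 CPM in Input and at 528, 521 and 451 CPM in IP (log2 -1.39 ± 0.12 SE).

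The members' ratios were ordered along gene composition and length. The quintile of members with the lowest whole-gene GC content (median 37.3%) had a relative median of -0.57, with 430 of 570 lower and 18 higher. In the quintile with the highest (54.6%) it was 0.32, with 33 of 569 lower and 150 higher. Along gene span the relative median went from 0.45 in the shortest quintile (median 21.3 kb) through -0.02, -0.27 and -0.39 to -0.53 in the longest (294 kb). Across members, Spearman's rho with log2 IP/Input was 0.58 for whole-gene GC content, 0.48 for exonic GC content, -0.57 for gene span, 0.48 for the exonic share of the gene and -0.24 for exonic length (n = 2846 genes, a description across genes that share libraries). Whole-gene GC content and span were themselves related (rho -0.55).

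Among genes chosen by Input the order along GC content was close to that of members, from -0.69 in the lowest quintile to 0.04 in the highest (rho 0.56). It was shallower along span (-0.07 to -0.58, rho -0.35) and nearly gone along exonic length (-0.40 to -0.46, rho -0.04). GC content ordered members within the longer span classes as well, and only slightly within the shortest. In the longest span quartile, the relative median went from -0.64 in the GC-poorest to 0.18 in the GC-richest quartile. In the shortest span quartile of members it went from 0.32 to 0.39. In that of genes chosen by Input it went from -0.47 through -0.17 and -0.30 to 0.005. After the whole-gene GC correction, the shortest and the longest quintile of members stood at 0.18 and -0.18, and the GC-richest quintile at -0.17. Excess of C over G was not ordered in this way (rho -0.08).

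**Figure D3:**
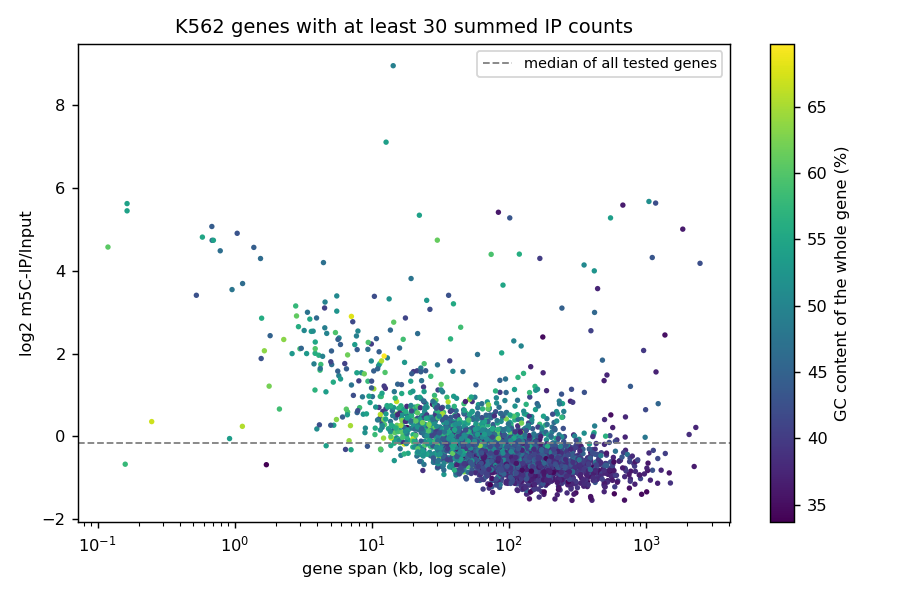
log2 m5C-IP/Input of each member with an annotation match against the span of its gene (kb, log axis), coloured by whole-gene GC content, with the median of all tested genes dashed. Short genes lie high, long GC-poor genes lie below the line, and a sparse set of long genes lies above 4.

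**Figure D4:**
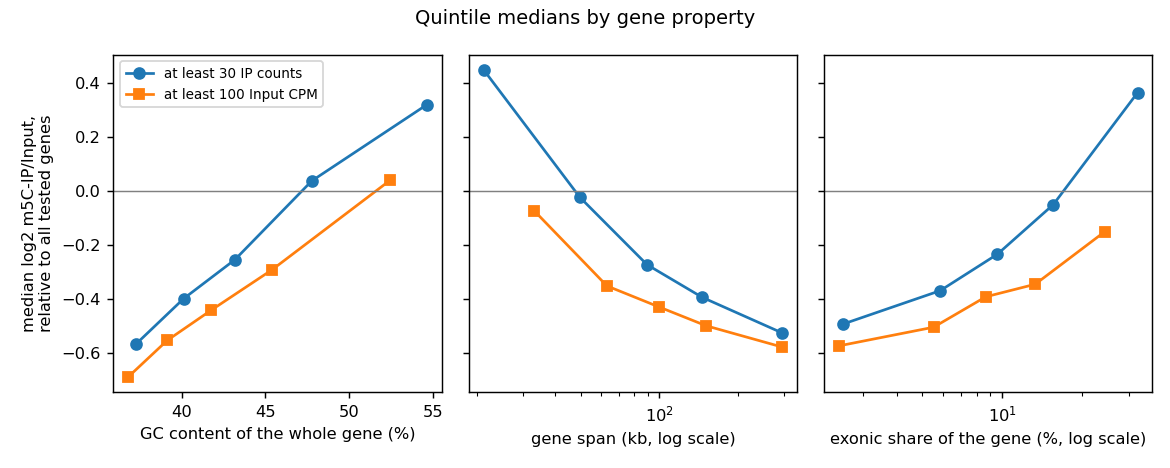
Median log2 m5C-IP/Input relative to all tested genes for quintiles of genes ordered by whole-gene GC content, gene span and exonic share, each point placed at the median property of its quintile. Circles are the members, from -0.57 to 0.32 along GC content, and squares the genes chosen by Input, from -0.69 to 0.04.

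The same order was read from the libraries as wholes, where each gene was weighted by its counts. The count-weighted whole-gene GC content was 45.3%, 45.3% and 45.3% in the IP libraries and 43.8%, 43.8% and 43.7% in the Input libraries. The count-weighted exonic GC content was 48.4% ± 0.013 in IP and 46.9% ± 0.065 in Input (SD, n = 3 each). The count-weighted gene span was 144.8 kb in IP and 164.5 kb in Input, the exonic length 8648 ± 24.7 and 9318 ± 15.4 bases, the number of exon segments 19.1 and 20.6, and the exonic share of the gene 17.5% and 13.8%. In all 8 properties computed the groups did not overlap, with p = 0.1 by the two-sided exact permutation test, the smallest that 3 against 3 libraries allow (adjusted p = 0.1).

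Chromosomes were ordered in a like way. The members of chromosome 19 (176 genes, median GC content 53.8%) had a relative median of 0.32 with 48 higher and 14 lower, and those of chromosome 22 (79 genes, 50.2%) one of 0.15. The lowest was chromosome 4 (108 genes, 39.8%) at -0.46, with 65 lower and 6 higher.

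By biotype, 2639 members were protein coding and 157 lncRNA. Of the lncRNA members 88 were lower and 24 higher (relative median -0.37), and of the protein-coding members 1081 and 302 (-0.19). With the whole-gene GC correction these medians were -0.11 and -0.12. Of the 169 lncRNA genes chosen by Input 122 were lower and 5 higher (-0.57). As a class, lncRNA genes took 10.0%, 10.3% and 10.0% of IP gene counts and 7.73%, 7.69% and 7.75% of Input gene counts. The tested lncRNA genes as a whole, 2147 of them, had 436 higher and 189 lower (0.27), a set that the low count filter lets in through IP as well as through Input. Without MALAT1, NEAT1 and the chromosome 21 pair, which held 3207 IP counts, the share was 8.90% to 9.29% in IP and 7.58% to 7.63% in Input. CCDC26, the most abundant lncRNA member in Input, stood at 2356, 2329 and 2399 CPM in Input and at 2325, 1968 and 1890 CPM in IP (log2 -0.40 ± 0.07 SE, edgeR adjusted p = 1.685e-06), though it was at 0.01 after the whole-gene GC correction. MIR3667HG was at -0.01 and not called, though it was called lower with the whole-gene GC correction (-0.36) and higher with library size alone (0.26).

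Protein-coding genes took 87.3% ± 0.125 of IP and 90.4% ± 0.025 of Input gene counts (SD, n = 3). The share of small nuclear RNA genes was 0.0683% ± 0.0054 against 0.00708% ± 0.00104, that of small nucleolar RNA genes 0.0396% ± 0.0019 against 0.00232% ± 0.00005, and that of mitochondrial ribosomal RNA 0.0222% ± 0.0050 against 0.00611% ± 0.00055. Of 11 biotypes with a member, 9 did not overlap between IP and Input (p = 0.1, two-sided exact permutation test, adjusted p = 0.122). Transcribed processed and transcribed unprocessed pseudogenes overlapped (p = 0.7 and 0.4, exact permutation test). Single pseudogene members differed. PRKXP1 stood at 18.6, 18.2 and 15.7 CPM in Input and at 92.6, 117 and 140 CPM in IP (log2 2.51 ± 0.33 SE). MIR3171HG was lower (log2 -1.38 ± 0.15 SE), and UBBP4, PTPRVP and ENSG00000280828 were not called, though PTPRVP was called lower without IP replicate 3 (-0.80).

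On the higher side of the size rule, with 326 of the 2848 members, the U1 copies stood among genes with very little Input. Without the rest of the rule, 11.9% of members and 15.1% of all tested genes were called higher. Genes with so little Input are members only through high IP counts, and the size rule uses the same p-values. Their adjusted p-values are therefore no support. PTPRN2, a receptor-type phosphatase of secretory vesicles (chr7:157539056-158587823), stood at 3.96, 2.34 and 3.63 CPM in Input and at 204, 198 and 183 CPM in IP (log2 5.67 ± 0.33 SE, edgeR adjusted p = 4.873e-39). CDH13, a cadherin, stood at 2.70, 1.56 and 2.77 CPM in Input and at 120, 171 and 107 CPM in IP (log2 5.63 ± 0.40 SE). ARHGAP15 (5.58), the noncoding host gene MIR663AHG (5.41), PODNL1 (5.34) and SORCS2 (5.27) completed the 8. MIR663AHG had the most counts, with 349 in Input and 158 in IP, at 528, 413 and 591 CPM in IP. XACT, the member with the longest exonic length, was higher as well (log2 3.57 ± 0.37 SE, 35 IP counts). In all, 14 members had under 5 Input CPM. The 2 highest ratios of all stood outside the size rule and are named after their values were seen. ENSG00000261095, a noncoding gene, rested on 9 Input counts and on 10, 35 and 6 IP counts (log2 8.94 ± 0.47 SE), and the pseudogene ENSG00000255585 on 26 Input and 39 IP counts (7.10 ± 0.45).

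PTPRN2, CDH13, ARHGAP15 and SORCS2 span 550 to 1174 kb, so a low density of IP reads over a long gene reaches the limit. A density of this kind was measured in 1648 other genes of at least 100 kb with under 1 Input CPM, none of them a member. They had 12.0 IP counts a megabase, or 38.1 ± 2.76 CPM a megabase in IP and 1.59 ± 0.03 in Input (SD, n = 3). These genes were chosen for low Input, which fixed the Input side in advance, so their ratio of 24.0 is a description without a test. The IP density rose with GC content, from 24.2 ± 5.11 CPM a megabase in the GC-poorest quintile to 67.7 ± 4.07 in the richest. At 12.0 counts a megabase, the span alone would give 20.6% of the IP counts of PTPRN2, 33.4% of those of CDH13, 23.1% of those of ARHGAP15 and 16.1% of those of SORCS2. For CTNNA3, a member singled out for its span of 1851 kb, it would give 63.3%. At the density of the GC quintile of each gene, which was tried after seeing the data, the shares were 36.4% for PTPRN2, 38.5% for CDH13, 14.8% for ARHGAP15, 28.4% for SORCS2 and 40.4% for CTNNA3. Over all members the median was 1.97% at the 1 density and 2.47% at that of the GC quintile, and 21 and 20 members passed 25%. The part of this density in the members' ratios was not tested.

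**Figure D5:**
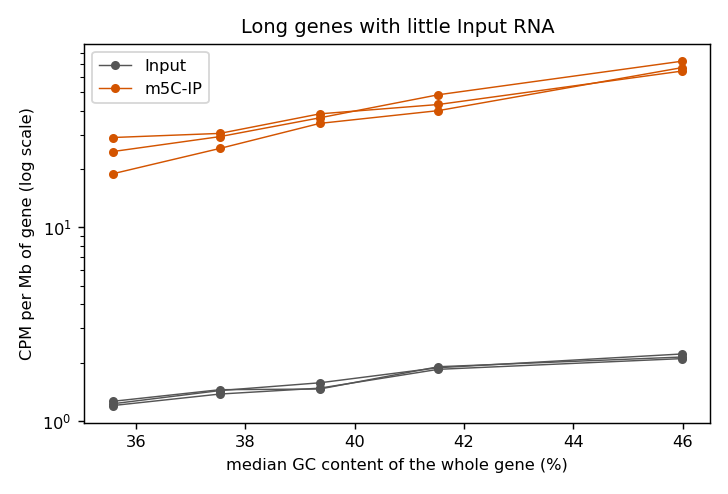
CPM per megabase of gene (log axis) in each library for quintiles, ordered by whole-gene GC content, of 1648 genes of at least 100 kb with under 1 mean Input CPM. The 3 IP libraries (orange) rise from a mean of 24.2 to 67.7 and lie above the 3 Input libraries (grey), which go from 1.23 to 2.15.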

How the data were processed

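Read counts per gene of 6 K562 libraries (3 Input, 3 m5C-IP) were used as deposited. The authors fragmented RNA, pulled it down, built libraries with a stranded total RNA kit and, per the labels, trimmed reads with Trimmomatic 0.39 and aligned them with HISAT2 2.1.0 to hg38; HTSeq and featureCounts are named as counters for the study's RNA-seq, and which of them made the counts of these libraries is not given in the sources used here. Duplicate removal is described for peak calling only. Summary lines, 26.0% to 26.2% of Input and 60.7% to 61.4% of IP records, stayed out of library sizes and tests. Spike-in RNA was not used, so values are relative within a library. The members and the gene lists were chosen with earlier results of these data known. Names, positions, GC content and sequences came from GENCODE 44 (GRCh38), while the study names release 29; 99.1% of gene rows matched, and 3.09% of members had the same identifier version in both, so spans may differ from those counted. Positions are 1-based.

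The test was the quasi-likelihood F test of edgeR 4.0.16 (R 4.3.3) after filterByExpr, with TMM factors and p-values adjusted over all tested genes by the Benjamini-Hochberg method. SE is the absolute log2 value divided by the square root of F. The filter asks for 1.89 CPM in 3 libraries, which 1 IP count exceeds, and 1256 tested genes, 3 of them members, passed only through IP. In simulated counts over 14522 genes, 27, 186 and 200 of 200 changed members were recovered at log2 changes of 0.5, 1 and 2. Of the simulated calls 6.9%, 5.58% and 2.91% were false. The simulation held almost no spread beyond counting noise (coefficient of variation 0.00988). The real IP pairs had 1.17 to 1.21 times the spread of counting noise by chi-square, so recovery in these data may be lower. Library properties were compared by exact permutation tests (scipy 1.17.1). Named genes were the 8 highest and 8 lowest members by the size rule, the 3 most abundant lncRNA members and the most abundant of each other noncoding biotype, the 2 most abundant of each list and the extremes of exonic length and GC content. Others are named as chosen after their values were seen, including list members given as the ends of a range. Alternatives were other scalings, DESeq2 1.42.0, no low count filter, GC corrections, a replicate block, thinned Input, left-out libraries and, added after seeing the data, whole-gene properties, summed Input and densities by GC content. Some items are not reported here.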

Additional observations from a re-analysis of the deposited data

How the results depend on the processing

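With library size alone as the scaling, 516 members were higher and 583 lower. With no low count filter the counts were 215 and 1805, at a limit of 100 summed IP counts 57 and 195, and for genes chosen by Input 85 and 1634. Thinning Input to the IP depth left 284 higher and 212 lower. DESeq2 gave 428 and 880. Leaving out 1 library gave 284 to 330 higher and 952 to 1187 lower members. With the exonic GC correction, the same with the replicate block, and the whole-gene GC correction, the log2 value of CCDC26 became 0.0195, 0.0147 and 0.0138 and that of FBRSL1 -0.17, -0.17 and -0.37, each against its original sign. Without IP replicate 3 the difference in the share of transcribed processed pseudogenes, IP minus Input, was -0.005638 percentage points (range over left-out libraries -0.005638 to 0.03386). Among 68 named genes under all settings, 41 calls were lost, 40 were gained, 6 values reversed and 1001 kept direction and call. The cause was not tested.

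The relative median turned its sign with no low count filter for protein-coding genes (0.02) and solute carriers (0.08), and with the whole-gene GC correction for erythroid genes (-0.12) and the GC-richest quintile (-0.17). Cell cycle genes turned to -0.11 without IP replicate 3. Among genes chosen by Input, cell cycle (-0.27), erythroid (-0.22) and nuclear respiratory chain genes (-0.15) turned. Whether replicate numbers pair the samples could not be decided, because the spread between libraries was close to counting noise. Correlations of same-numbered deviations were 0.009, 0.0106 and 0.0747. IP replicates 1 and 3 correlated best with the same-numbered Input, and IP replicate 2 with Input replicate 1 (0.0598). The fit with the replicate block gave 293 higher and 1093 lower members, and with the GC correction 258 and 984. The share of repeats in genes was not run, since the genome used carries no masking. The IP libraries set the precision, and 27 of 200 simulated members were recovered at a log2 change of 0.5.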
